A study of Mus musculus with 24 samples.

Results

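The 10 genes described here are interferon-stimulated genes: Ifit1, Ifit2, Ifit3, Isg15, Oas2, Oas3, Usp18, Cmpk2, Irf7 and Bst2. They were taken by name from a NanoString nCounter table of 770 genes, an assay in which barcoded probes count RNA molecules without amplification, and all 10 were on it. All 10 also passed the filter on low values (a normalized count of at least 20 in at least 4 of the 24 samples), which left 621 genes for testing. Ifit3 passed with exactly 4 such samples, 1 of them on the second cartridge and 3 on the first. They read 29.7 in entinostat with antibodies to CTLA-4 and HER2, 35.1 and 23.4 in entinostat with anti-PD-1, and 20.9 in entinostat alone. Without any 1 of these arms Ifit3 would not have been tested, so its high values in them are not support for a difference.

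Samples were tumours that grew after 50000 NT2.5 cells, a line from a spontaneous mammary tumour, were placed in the mammary fat pad of female FVB neu-N mice aged 7 to 8 weeks. In neu-N mice the rat neu gene is driven by a mammary tumour virus promoter, so the host is tolerant to the tumour's neu antigen, and every tumour came from this 1 cell line. Dosing started 3 days after implantation and ran for 3 weeks. The arms were entinostat with antibodies to CTLA-4 and HER2 (ENT+CTLA4+HER2, n = 2), entinostat with antibodies to PD-1 and CTLA-4 (ENT+PD1+CTLA4, n = 4), entinostat with anti-CTLA-4 (ENT+CTLA4, n = 4), a repeat-titled pair whose titles duplicate those of ENT+PD1 replicates 1 and 2 (n = 2), entinostat with anti-PD-1 (ENT+PD1, n = 4), entinostat alone (ENT, n = 4) and vehicle (n = 4). Entinostat, an inhibitor of class I histone deacetylases, was given by mouth at 5 mg/kg each day in 0.5% methylcellulose, and each antibody at 100 µg per mouse. Vehicle mice received methylcellulose and isotype antibodies. The protocol also mentions that neu-N studies ran with and without anti-HER2, and the arms were taken here from the titles alone. The labels name whole tumour as the source, while the extraction text ends with isolation of immune cells, and which material gave the RNA was not settled. They do not say that replicates are separate animals, so p-values measure the spread between these samples, which may be technical.

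The scanner headers hold a date and an identifier that split the samples into 2 sets of 12, taken here as 2 cartridges. Each cartridge has its own date, so cartridge and date cannot be told apart. The second cartridge held ENT+CTLA4+HER2, ENT+PD1+CTLA4, ENT+CTLA4 and the repeat-titled pair, and the first held ENT+PD1, ENT and vehicle. Total counts per sample lay between 226863 and 483412. Leukocyte RNA (Ptprc, the pan-leukocyte antigen CD45, at 98.3 to 556 normalized counts) and epithelial tumour RNA (5 markers summing to 6014 to 11006) were present in all 24 samples. In such bulk samples fewer cells of a type and less RNA per cell cannot be told apart.

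Type I interferons bind the receptor pair Ifnar1 and Ifnar2, and the kinases Jak1 and Tyk2 then activate a transcription factor complex that contains Irf9. The complex binds the interferon-stimulated response element, a repeated GAAA motif upstream of many antiviral genes. The products of those genes block viral RNA, modify proteins and tune the pathway itself. In tumours such genes are read as a trace of interferon exposure of tumour cells, myeloid cells or lymphocytes.

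Promoter windows of 300 bases, 250 before and 50 from the annotated start, were found in RefSeq (GRCm38.p6) for 8 of the 10 genes, not including Oas2 and Usp18. The response element core was searched on both strands as GAAA, any 2 bases and again GAAA. It occurred in 5 of the 8 genes, Ifit1, Ifit3, Isg15, Oas3 and Bst2, against 3.44% of 32851 promoters of the same length. The windows of 4 of these are printed because the genes carried the largest changes or the densest motif run, with each match in capitals.
Ifit1: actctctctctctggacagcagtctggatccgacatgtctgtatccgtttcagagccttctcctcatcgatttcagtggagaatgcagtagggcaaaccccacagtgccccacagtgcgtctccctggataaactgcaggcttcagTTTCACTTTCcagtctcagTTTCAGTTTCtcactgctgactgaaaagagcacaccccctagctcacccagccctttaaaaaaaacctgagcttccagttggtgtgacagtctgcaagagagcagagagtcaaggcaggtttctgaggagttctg
Ifit3: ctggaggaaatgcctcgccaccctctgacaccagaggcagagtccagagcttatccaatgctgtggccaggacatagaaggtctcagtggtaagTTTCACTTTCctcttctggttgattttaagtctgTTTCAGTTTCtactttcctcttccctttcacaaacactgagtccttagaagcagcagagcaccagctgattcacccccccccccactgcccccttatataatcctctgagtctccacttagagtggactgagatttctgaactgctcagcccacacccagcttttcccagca
Isg15: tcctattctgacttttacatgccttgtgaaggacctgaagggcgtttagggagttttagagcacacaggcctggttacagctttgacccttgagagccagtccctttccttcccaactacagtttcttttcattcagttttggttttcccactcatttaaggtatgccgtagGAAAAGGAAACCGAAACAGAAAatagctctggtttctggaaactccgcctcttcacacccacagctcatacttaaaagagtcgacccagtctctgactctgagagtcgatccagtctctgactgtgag
Oas3: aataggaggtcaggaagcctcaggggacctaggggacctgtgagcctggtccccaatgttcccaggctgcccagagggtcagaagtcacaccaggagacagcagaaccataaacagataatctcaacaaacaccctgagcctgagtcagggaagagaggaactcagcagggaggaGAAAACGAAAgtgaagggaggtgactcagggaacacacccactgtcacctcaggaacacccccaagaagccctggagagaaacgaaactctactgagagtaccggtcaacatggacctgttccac
The window of Ifit1 is chr19:34640639-34640938 on the + strand, that of Ifit3 is chr19:34583279-34583578 on the + strand, that of Isg15 is chr4:156200769-156201068 on the - strand and that of Oas3 is chr5:120777610-120777909 on the - strand. Ifit1 and Ifit3, which lie on the same chromosome, hold the same pair of core forms on the minus strand, TTTCACTTTC and TTTCAGTTTC. Their first bases are at -104 and -85 from the start in Ifit1 and at -156 and -122 in Ifit3. Isg15 carries 3 overlapping matches with first bases at -78, -72 and -66, Bst2 has 2 overlapping ones at -130 and -124, and Oas3 has 1 at -75. No match was present in the windows of Ifit2 (2 annotated starts), Cmpk2 and Irf7, which says only that these letters are not in the windows. The gamma-activated sequence (TTC, any 3 bases and GAA), an element of interferon gamma response, occurred in Ifit2 and in Bst2, where it overlaps the response element, against 8.30% of all promoters.

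**Figure D1:**
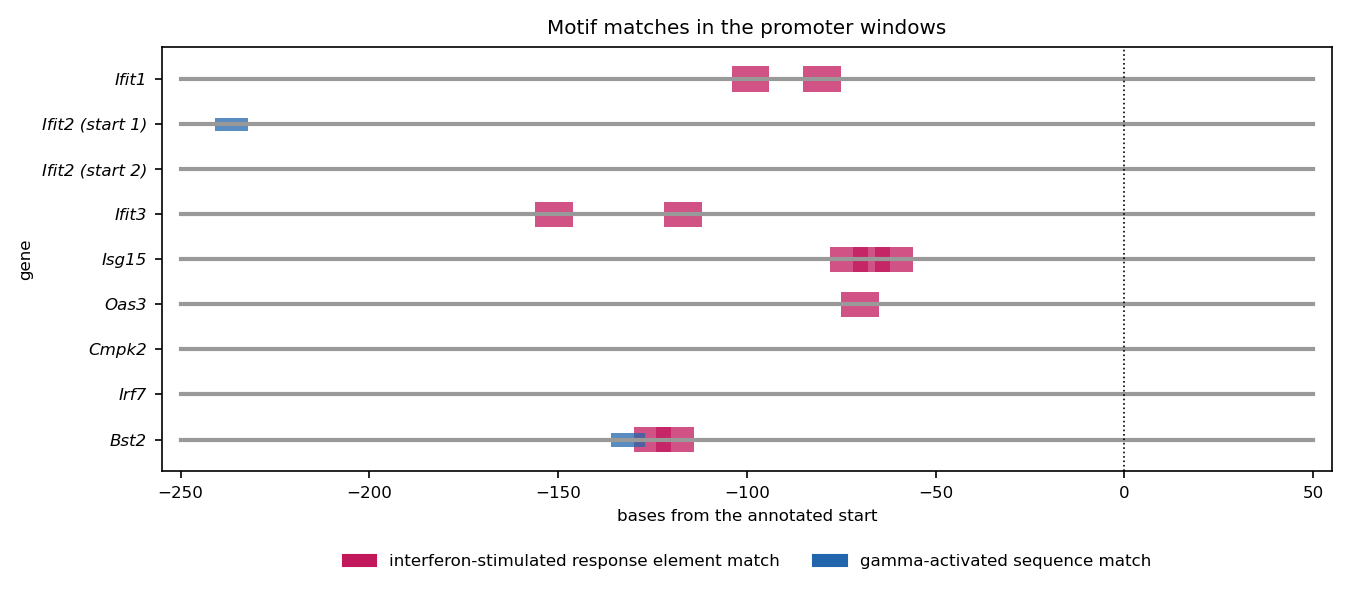
Promoter windows of 8 of the genes, drawn as bases from the annotated start (horizontal axis), with matches to the interferon-stimulated response element core (pink) and the gamma-activated sequence (blue). The 5 genes with a response element match carry it between -156 and -66, while Ifit2, Cmpk2 and Irf7 have none in these windows.

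Values below are normalized counts. The detection level of a sample is the mean of its 8 negative control probes plus 2 SD, scaled like the genes. It ran between 8.54 and 16.9 on the second cartridge and between 10.8 and 25.3 on the first. Bst2, Isg15 and Ifit2 exceeded it in all 24 samples, Ifit1 in 23, Cmpk2 in 22, Usp18 in 21, Oas2 in 18, Irf7 in 17, Oas3 in 15 and Ifit3 in 7. For all of the set but Bst2 the measurement rests on fewer than 100 molecules per sample.

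Among the Ifit genes, whose products bind viral RNA and restrain its translation, Ifit1 varied most clearly with the cartridge. It read 28.9 and 36.1 in ENT+CTLA4+HER2, 24.9, 9.70, 16.2 and 22.7 in ENT+PD1+CTLA4, 16.4, 14.6, 13.7 and 18.6 in ENT+CTLA4, and 15.2 and 22.4 in the repeat-titled pair. On the first cartridge Ifit1 read 48.3, 38.4, 38.6 and 34.2 in ENT+PD1, 29.1, 21.7, 28.2 and 33.2 in ENT, and 45.7, 41.4, 27.7 and 32.0 in vehicle. ENT+CTLA4 tumours all lay under every tumour of the first cartridge, and the ENT+CTLA4+HER2 tumours lay among them. Ifit2 spanned 17.7 to 49.8 on the second cartridge and 21.4 to 46.0 on the first, with every arm of 4 overlapping every other. Ifit3, which binds Ifit1 in the same antiviral complex, exceeded its detection level in 4 samples of the second cartridge and 3 of the first. Ifit3 read 17.0 and 29.7 in ENT+CTLA4+HER2, 4.17 to 14.4 in the other arms of the second cartridge, 18.4, 35.1, 23.4 and 19.7 in ENT+PD1, 6.80, 20.9, 14.1 and 5.96 in ENT, and 9.69, 11.4, 8.40 and 16 in vehicle. The ENT+PD1 values were above the vehicle values in Ifit3, with 1 ENT tumour among them, but only 2 of the 4 ENT+PD1 samples and 0 of the 4 vehicle samples were above detection.

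The Oas enzymes make oligoadenylates that switch on RNase L. Oas2 read 25.5 and 28.4 in ENT+CTLA4+HER2, 31.4, 7.93, 15.4 and 10.8 in ENT+PD1+CTLA4, 12.3, 8.33, 19.2 and 17.1 in ENT+CTLA4, and 9.14 and 7.47 in the repeat-titled pair. On the first cartridge it read 32.2, 24.5, 42.1 and 32.2 in ENT+PD1, 23.3, 17.8, 25.2 and 20.4 in ENT, and 47.1, 28.5, 22.7 and 20.6 in vehicle. The repeat-titled pair had the lowest Oas2 beside 1 ENT+PD1+CTLA4 and 1 ENT+CTLA4 tumour, and vehicle replicate 1 had the highest. Oas3 read 22.1 and 18.1 in ENT+CTLA4+HER2, 10.8, 9.70, 4.06 and 7.57 in ENT+PD1+CTLA4, 11.3, 10.4, 7.30 and 9.32 in ENT+CTLA4, and 10.2 and 6.22 in the repeat-titled pair. It read 27.6, 13.1, 38.6 and 15.6 in ENT+PD1, 21.4, 16.3, 22.2 and 19.6 in ENT, and 20.8, 27.1, 14.3 and 20.6 in vehicle. On the second cartridge Oas3 was above its detection level in 5 of 12 samples, both ENT+CTLA4+HER2 tumours and 3 of ENT+CTLA4.

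Isg15 is a ubiquitin-like protein attached to other proteins after interferon, and Usp18 removes it and also damps the receptor. Isg15 lay between 32.6 and 58.1 on the second cartridge and between 28.6 and 62.3 on the first, and its arms of 4 overlapped throughout. Usp18 had the lowest ratio of the cartridges' means among the 10 genes, 0.455. It read 25.5 and 19.4 in ENT+CTLA4+HER2, 18.4, 10.6, 12.2 and 17.3 in ENT+PD1+CTLA4, 8.21, 14.6, 7.30 and 15.5 in ENT+CTLA4, and 17.3 and 9.96 in the repeat-titled pair. Usp18 read 44.8, 32.7, 42.1 and 37.4 in ENT+PD1, 30.1, 24, 31.3 and 32.4 in ENT, and 27.7, 42.8, 16.8 and 25.1 in vehicle. Of the first cartridge only vehicle replicate 3, at 16.8, fell within the range of the ENT+PD1+CTLA4 tumours.

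Cmpk2, a mitochondrial nucleotide kinase, read 34.0 and 46.5 in ENT+CTLA4+HER2, 29.2, 9.70, 10.6 and 22.7 in ENT+PD1+CTLA4, 23.6, 8.33, 22.8 and 11.7 in ENT+CTLA4, and 19.3 and 16.2 in the repeat-titled pair. It read 49.4, 42.5, 52.7 and 40.5 in ENT+PD1, 25.3, 27.1, 37.3 and 28.1 in ENT, and 41.5, 31.4, 23.5 and 35.4 in vehicle. Irf7, the transcription factor that amplifies interferon alpha production, read 18.7 and 27.1 in ENT+CTLA4+HER2, 22.7, 9.70, 17.1 and 21.6 in ENT+PD1+CTLA4, 20.5, 10.4, 13.7 and 17.1 in ENT+CTLA4, and 12.2 and 22.4 in the repeat-titled pair. Irf7 read 20.7, 35.1, 23.4 and 44.6 in ENT+PD1, 10.7, 17.0, 9.08 and 15.3 in ENT, and 22.1, 14.3, 14.3 and 14.8 in vehicle. The 2 highest Irf7 values were both ENT+PD1 tumours, and the lowest was an ENT tumour.

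Bst2 (tetherin), which holds budding virus at the cell surface and in mice also marks plasmacytoid dendritic cells, was counted far above background in all samples. It read 353 and 440 in ENT+CTLA4+HER2, 385, 302, 408 and 361 in ENT+PD1+CTLA4, 341, 356, 369 and 400 in ENT+CTLA4, and 246 and 280 in the repeat-titled pair. On the first cartridge Bst2 read 423, 425, 442 and 488 in ENT+PD1, 397, 367, 407 and 428 in ENT, and 458, 439, 368 and 436 in vehicle. The repeat-titled pair had the lowest 2 of the 24 values.

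**Figure D2:**
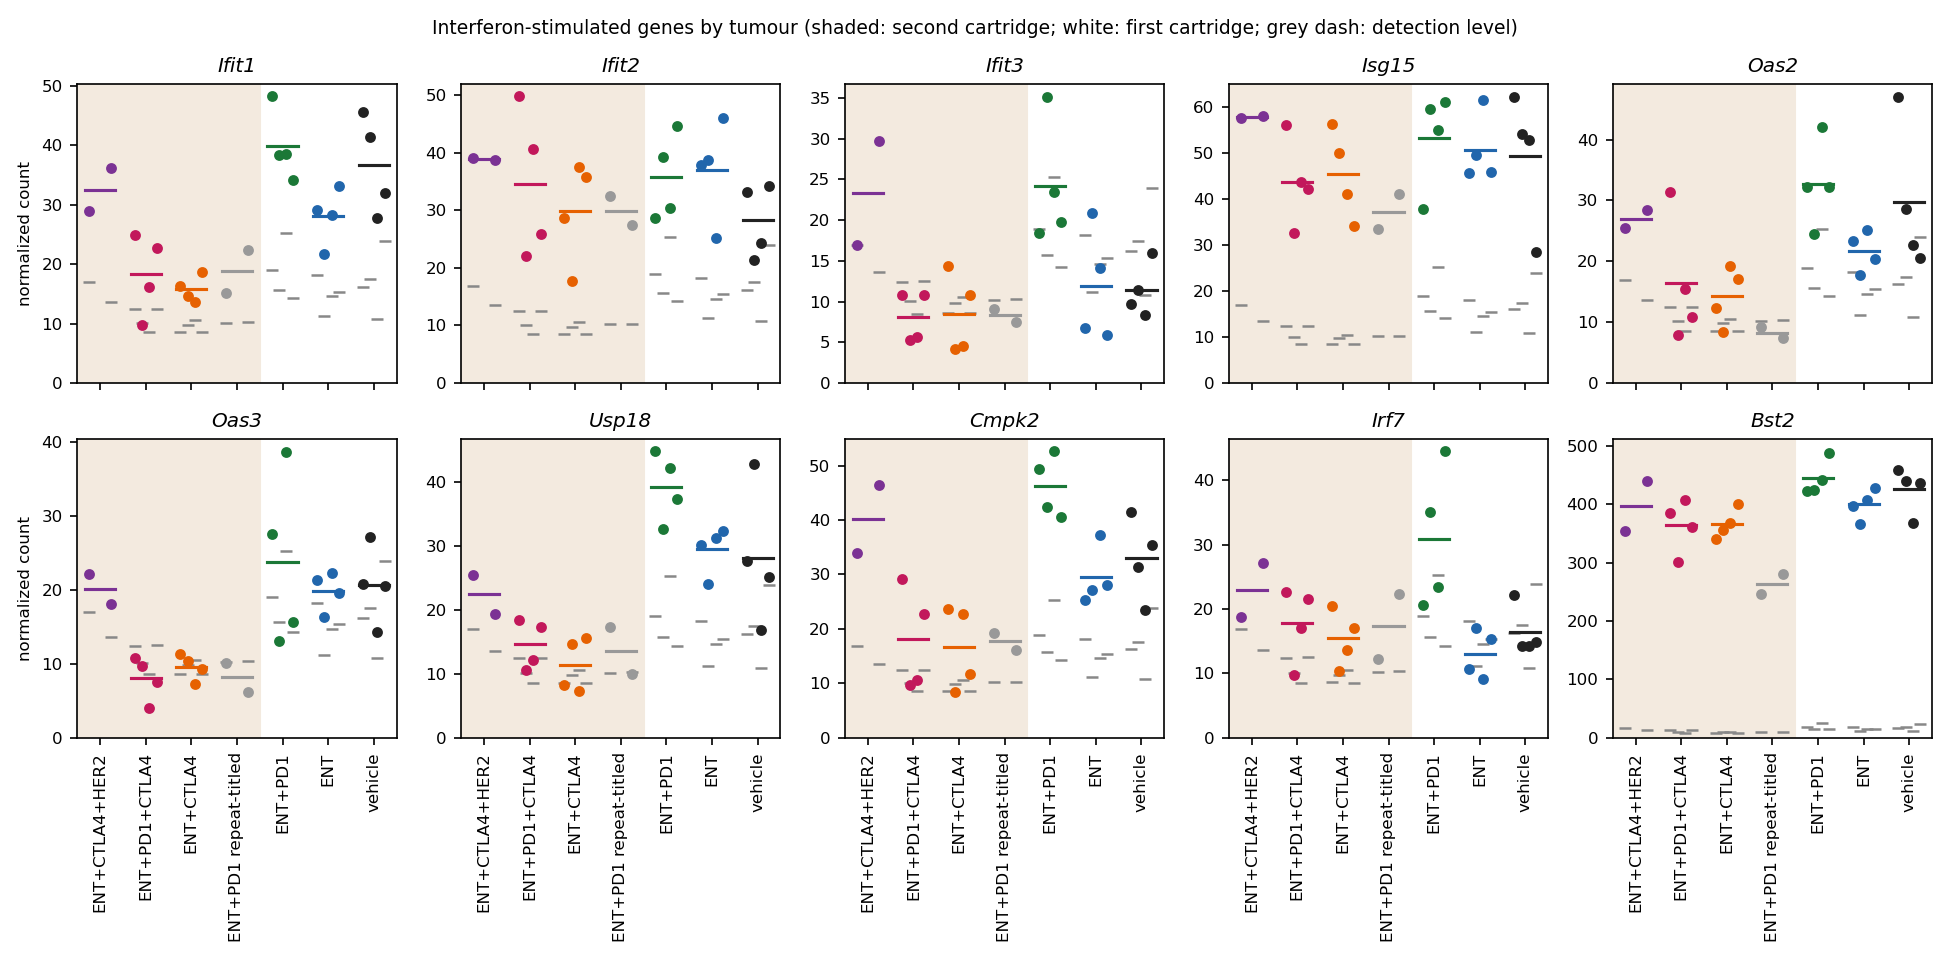
Normalized count (vertical axis, starting at 0) of each gene in each of the 24 samples by arm. Points are samples, coloured lines are arm means, grey dashes are each sample's detection level, and shading marks the second cartridge. The arm means of Usp18 lie lower on the shaded side, 22.4 in ENT+CTLA4+HER2 included, while those of Ifit1, Oas3 and Cmpk2 in ENT+CTLA4+HER2 (32.5, 20.1 and 40.2) lie among the means of the unshaded arms, and Ifit3 rarely clears the dashes.

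The mean of log2(value + 1) over the 10 genes gives 1 level per sample and is used here as a description, with no test. It was 5.31 ± 0.13 in ENT+CTLA4+HER2 (SD, n = 2), 4.56 ± 0.41 in ENT+PD1+CTLA4, 4.49 ± 0.21 in ENT+CTLA4 (n = 4 each), 4.43 ± 0.037 in the repeat-titled pair (n = 2), 5.50 ± 0.075 in ENT+PD1, 5.04 ± 0.055 in ENT and 5.12 ± 0.23 in vehicle (n = 4 each). ENT+PD1 was the highest arm, between 5.43 and 5.60, and overlapped none. ENT+CTLA4+HER2, at 5.22 and 5.4, overlapped vehicle (4.82 to 5.37), which overlapped ENT (4.97 to 5.10). The other 3 arms of the second cartridge overlapped each other, ENT+PD1+CTLA4 with the widest spread (4.09 to 5.07). ENT+PD1+CTLA4 replicate 1, at 5.07, also lay within the ranges of ENT and vehicle.

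The arms that differ most in these genes lie on different cartridges, and control probes that carry no tumour RNA differed as well. The mean of the negative control probes was 5.01 ± 0.568 unscaled counts per sample on the second cartridge and 8.65 ± 1.17 on the first (SD, n = 12 each), with ranges of 4.00 to 6.00 and 7.00 to 10.9 that did not overlap. The weakest spike-in, POS_F, added in equal amount to every sample, gave 21.4 ± 4.17 on the second and 31.6 ± 7.70 on the first, a ratio of 0.678. The next weakest, POS_E, had a ratio of 0.845, and the 4 stronger ones had ratios of 0.874 to 0.959. The housekeeping genes had been scaled to the same geometric mean, 346.9, in each sample, and the values show no sign that background was subtracted.

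The mean log2 value of each of the 10 genes was lower on the second cartridge (10 of 10, against 61.2% of the 621 genes tested). The median difference, second minus first, was -0.68 over the 10 and -0.06 over all genes tested. Usp18 lay at the low end with -1.12 and Ifit2 at the high end with -0.04. Among the 156 genes with the lowest mean level (10.35 to 36.2), which include all of the set but Isg15 and Bst2, the median difference was -0.33 and 78.8% were below 0. Treatment and cartridge cannot be told apart in a comparison that crosses cartridges, except through the repeat-titled pair.

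**Figure D3:**
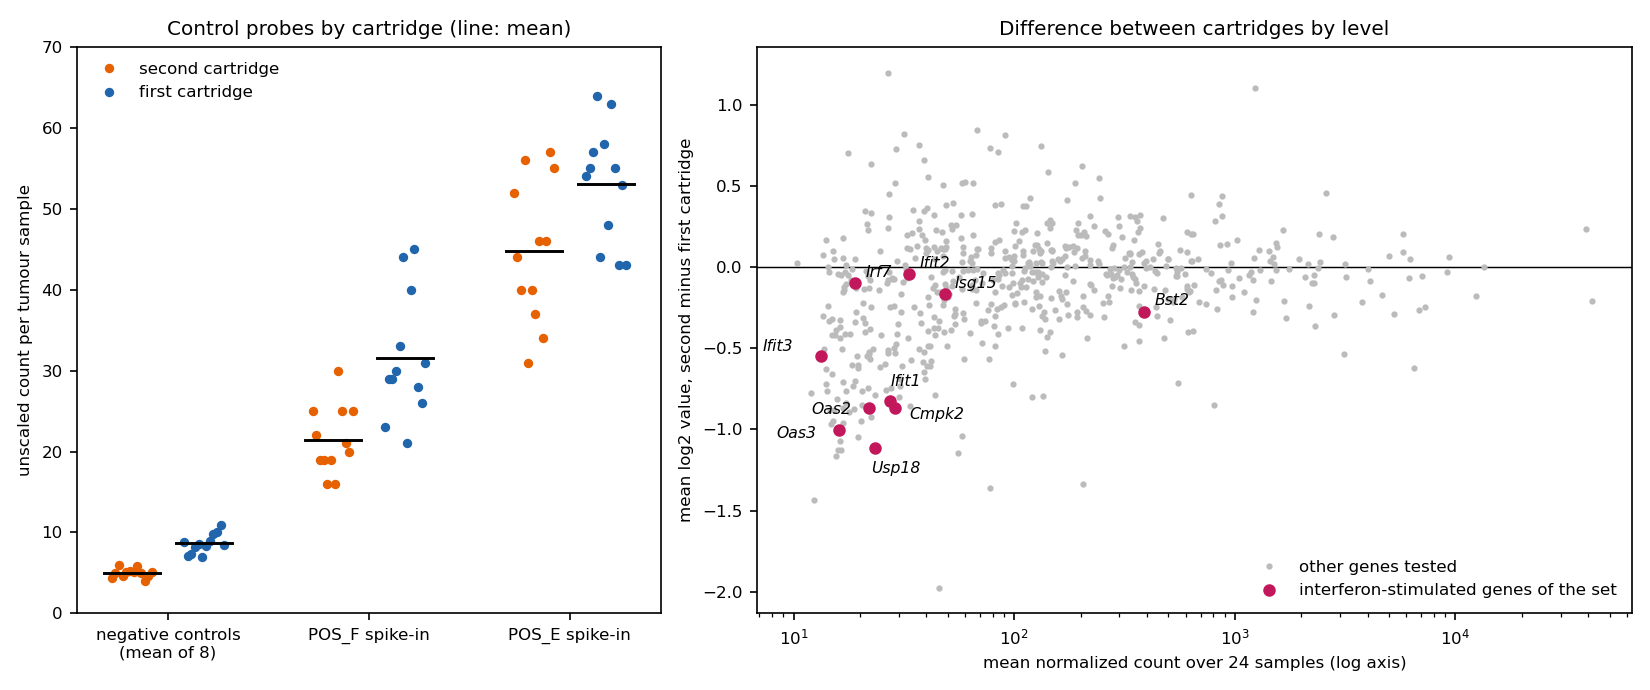
Left, unscaled counts per sample of the negative controls and the 2 weakest spike-ins on the second (orange) and first (blue) cartridge, with means as lines. Right, the mean log2 difference, second minus first cartridge, of each of the 621 genes against its mean normalized count on a log axis, with the 10 genes in pink. The negative controls do not overlap between cartridges, and the 10 genes all lie below 0.

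Whether entinostat alone altered these genes was asked within the first cartridge. No gene of the set was called between ENT and vehicle (0 of 10, against 0% of 621, limma adjusted p under 0.05), and 0 had an unadjusted p under 0.05, against 4.67%. Changes ran from -0.37 (Oas2, ± 0.35 SE) to 0.37 (Ifit2, ± 0.28), and all 10 genes overlapped between the arms, where 6.44% of all genes did not overlap. The median log2 change was -0.07, against -0.11 over all genes, and turned to 0.06 with median rescaling and 0.10 with quantile normalization.

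ENT+PD1 had the highest mean level of the set on the first cartridge. Against ENT, 9 of the 10 genes had a change above 0 in ENT+PD1, against 81.3% of all genes, and none was called (0 of 10, against 0.322%). Irf7 was at 1.16 ± 0.31 (SE, adjusted p = 0.143) and Ifit3 at 1.07 ± 0.42 (adjusted p = 0.227), both by limma with n = 4 each. In ENT each of them exceeded its detection level in 1 of 4 samples, so neither fold is well measured. Ifit3 also passed the filter only with its ENT+PD1 values counted. Over the set, 2 genes had an unadjusted p under 0.05, against 19.3%. Ifit1, Usp18, Cmpk2 and Irf7 did not overlap between ENT+PD1 and ENT, against 6.12% of all genes that were higher without overlap. On unscaled counts the genes without overlap were Oas2 and Cmpk2, against 1.77%. Total counts were 321192 to 452745 in ENT+PD1 and 365308 to 444151 in ENT. Unscaled counts do not allow for these totals, so overlap on them cannot tell whether levels differ. Without ENT+PD1 replicate 1, Irf7 was called at 1.33 (adjusted p = 0.0388). The median change of 0.45, against 0.34 over all genes, was 0.10 after median rescaling and -0.07 after quantile normalization.

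Against vehicle, the changes of ENT+PD1 were above 0 in 10 of 10 genes, against 70.5% of all genes, with 0 called (0% of all) and 2 at an unadjusted p under 0.05, against 9.66%. Ifit3 was at 1.02 ± 0.42 (limma adjusted p = 0.470) and was the 1 gene without overlap, against 1.61% of genes. But it was above detection in 2 of 4 ENT+PD1 and 0 of 4 vehicle samples, so this order is read at background. Ifit3 also passed the filter only with its ENT+PD1 values counted, so the order is not support for a difference. Irf7 came to 0.84 ± 0.31 and Usp18 to 0.53 ± 0.28. The median was 0.26, against 0.18 over all genes, with 0.05 after median rescaling and -0.13 after quantile normalization.

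On the first cartridge, T cell and macrophage marker sums spanned a wider range in ENT+PD1 than in ENT or vehicle. The summed T cell markers (5 genes) ran from 60.4 to 319 in ENT+PD1, 58.3 to 97.8 in ENT and 67.0 to 103 in vehicle. They ranged more widely still on the second cartridge, from 53.8 to 862 in ENT+PD1+CTLA4 and from 35.4 to 435 in ENT+CTLA4. The NK cell markers (3 genes) summed to 33.5 to 57.1 in ENT+PD1, 22.4 to 28.2 in ENT and 24.4 to 48.4 in vehicle. Klrk1, the activating receptor NKG2D, was called at 1.58 ± 0.33 against ENT by limma (adjusted p = 0.040). It averaged 7.83 in ENT, under that arm's lowest detection level of 11.2, so its fold is not well measured. Ncr1 averaged 14.1 in ENT+PD1 and 13.9 in ENT. After median rescaling or quantile normalization no gene was called between these arms. Macrophage markers (8 genes) summed to 2392 to 7005 in ENT+PD1, 2616 to 2904 in ENT and 2095 to 3893 in vehicle. Of these markers, Cd8a and Marco exceeded detection in 2 and 4 of the 24 samples and Klrb1c in 0. The part of these cells in the levels of the 10 genes was not tested.

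Adding anti-PD-1 to ENT+CTLA4 was examined within the second cartridge. Between ENT+PD1+CTLA4 and ENT+CTLA4, 0 of 10 genes were called (0% of all genes), 0 had an unadjusted p under 0.05 (1.61% of all), and all 10 overlapped, where 1.45% of all genes did not. The median change was 0.08, against -0.01 over all genes, and the single changes ran from -0.28 (Oas3, ± 0.32) to 0.36 (Usp18, ± 0.28). The interaction of the antibodies, the PD-1 antibody's effect in the presence of the CTLA-4 antibody minus that in its absence, was called for 0 of 10 genes (0% of all), and 1 had an unadjusted p under 0.05, against 6.76%. Irf7 was at -0.996 ± 0.44 (adjusted p = 0.595) and Ifit3 at -1.03 ± 0.59 (adjusted p = 0.597). Both differences in that contrast lie within a cartridge, so a shift between cartridges that is constant on the log scale cancels in it. A difference in background, as in the negative controls, is not constant on that scale for weak genes. Irf7 and Ifit3, above detection in 17 and 7 of 24 samples, are thus not free of the cartridge here. The median of -0.39, against -0.33 over all genes, was -0.01 after median rescaling and 0.04 after quantile normalization.

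The arm with anti-HER2 read higher than its neighbours on the cartridge in all 10 genes. Against ENT+CTLA4, ENT+CTLA4+HER2 had 10 of 10 changes above 0 (67.6% of all genes) and a median of 0.95, against 0.17 over all genes. None was called (0 of 10, against 2.25% of all), and 6 had an unadjusted p under 0.05, against 18.8%. Cmpk2 was 1.33 ± 0.42 higher (adjusted p = 0.0871) and Ifit1 0.99 ± 0.30 (adjusted p = 0.0847), with n = 2 against 4 in a limma fit. All genes but Irf7 and Bst2 were free of overlap (8 of 10, against 22.5% of genes that were higher without overlap). The scaling factors were 1.70 and 1.29 for the 2 ENT+CTLA4+HER2 samples, against 0.777 to 1.04 in ENT+CTLA4. Their total counts were 226863 and 311822, against 346883 to 483412 in ENT+CTLA4. Unscaled counts do not allow for these lower totals, so overlap on them cannot tell whether levels differ. On unscaled counts Oas3 alone did not overlap (1 of 10, against 1.61%), with 13 and 14 molecules in ENT+CTLA4+HER2, against 8 to 12 in ENT+CTLA4. Ifit1 had 17 and 28 molecules in ENT+CTLA4+HER2 against 14 to 24 in ENT+CTLA4, and these overlapped.

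Against ENT+PD1+CTLA4, the median change of ENT+CTLA4+HER2 was 0.73, against 0.18 over all genes, with 10 of 10 above 0 (69.1% of all). None of the 10 was called (0 of 10, against 3.06%), 4 had an unadjusted p under 0.05 (18.5% of all), and Oas3 had the smallest adjusted p, 0.0703, at 1.29 ± 0.39, with 0 of 4 ENT+PD1+CTLA4 samples above detection. Without overlap were 6 of 10 genes, against 18.4%, and on unscaled counts Oas3 alone, against 2.74%. Total counts in ENT+PD1+CTLA4 were 308488 to 460522, so unscaled counts have the same limit here. Without ENT+PD1+CTLA4 replicate 1, Oas3 was called at 1.44 (adjusted p = 0.0443) and Cmpk2 at 1.51 (adjusted p = 0.0372). The medians against ENT+CTLA4 and ENT+PD1+CTLA4 were 0.84 and 0.59 after median rescaling and 0.32 and 0.28 after quantile normalization. Both comparisons share the ENT+CTLA4+HER2 tumours.

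The neutrophil markers S100a8, Csf3r and Cxcr2 summed to 1854 and 12384 in ENT+CTLA4+HER2, against 439 to 2994 in ENT+PD1+CTLA4 and 821 to 1715 in ENT+CTLA4. S100a8, a neutrophil alarmin, was called against ENT+PD1+CTLA4 at 2.52 ± 0.66 (limma adjusted p = 0.0451). It averaged 6723 ± 7234 in ENT+CTLA4+HER2 (SD, n = 2) and 1078 ± 1140 in ENT+PD1+CTLA4 (n = 4), so its mean rests largely on 1 tumour. S100a8 also made up most of the summed markers, whose mean was 7119 in ENT+CTLA4+HER2. Macrophage markers summed to 3846 and 4420 in ENT+CTLA4+HER2, 1859 to 4390 in ENT+PD1+CTLA4 and 3160 to 4453 in ENT+CTLA4. The part of these cells in the result was not tested.

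Lower levels of the set under anti-CTLA-4 were called only in comparisons that cross the cartridges. The layout largely sets this, because every arm with anti-CTLA-4 lies on the second cartridge. Within that cartridge only the repeat-titled pair is a group titled without it. Ifit1 fell in ENT+CTLA4 against vehicle, at -1.14 ± 0.25 on the log2 scale (adjusted p = 0.0307), and so did Usp18, at -1.22 ± 0.28 (adjusted p = 0.0368), 2 of 10 against 1.45% of all genes. Changes were below 0 in 9 of 10 genes, against 57% of all, with a median of -0.75 against -0.06. That median was -0.80 after median rescaling, where limma still called Ifit1 (adjusted p = 0.0270) and Usp18 (adjusted p = 0.0382). It was -0.36 after quantile normalization and -0.17 with values under 20 set to 20. Usp18, above detection in 2 of 4 ENT+CTLA4 samples, was at -0.46 with that floor (adjusted p = 0.266). Ifit1, Oas2, Oas3 and Usp18 were lower without overlap, against 7.89% of genes. Against ENT, 0 of 10 were called (0% of all), 4 had an unadjusted p under 0.05 (15.1%) and 4 were lower without overlap (5.64%), with Usp18 at -1.35 ± 0.28 (adjusted p = 0.0747). Usp18 was called there without ENT+CTLA4 replicate 6 (-1.51, adjusted p = 0.0431).

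In ENT+PD1+CTLA4 against vehicle, Ifit1 fell, at -1.01 ± 0.25, and Oas3 was called lower, at -1.30 ± 0.32 (adjusted p = 0.0357 for each), 2 of 10 against 2.09%, and both were without overlap, against 7.57%. Oas3 was above detection in 0 of 4 ENT+PD1+CTLA4 samples, so its fold is not measured, and with the floor of 20 it was at -0.13 (adjusted p = 0.726). The median change of the set was -0.66, which was -0.41 after quantile normalization and -0.19 with the floor. After median rescaling it was -0.68, with 0 of the 10 called. Against ENT, 0 of 10 were called (0% of all), 4 had an unadjusted p under 0.05 (11.3%), 2 were lower without overlap (5.64%), and Oas3 was at -1.27 ± 0.32 (adjusted p = 0.208). Against ENT+PD1, 4 of 10 were called, all lower, against 3.22% of all genes. These were Usp18 at -1.39 ± 0.28 (adjusted p = 0.0108), Ifit1 at -1.15 ± 0.25 (0.0153), Oas3 at -1.40 ± 0.32 (0.0211) and Cmpk2 at -1.45 ± 0.34 (0.0234), by limma with n = 4 each. With the floor of 20, Oas3 was at -0.34 and no longer called (adjusted p = 0.265), while the other 3 were called. The median change of -1.13 was -0.54 after quantile normalization and -0.41 with the floor. After median rescaling it was -0.94, with 0 of the 10 called. Ifit3, Bst2 and these 4 did not overlap, 6 of 10 against 7.73%. Ifit3 is in that count only because its ENT+PD1 values passed the filter. Ifit2, Isg15 and Bst2 had the smallest differences, at -0.10, -0.29 and -0.29. The F test across the 5 arms with 4 samples called Usp18 (adjusted p = 0.00484), Ifit1 (0.0121), Oas3 (0.0275) and Cmpk2 (0.0398), 4 of 10 against 3.22%.

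These calls rested on single samples in many cases. Against vehicle, no gene of ENT+CTLA4 was called without vehicle replicate 1, 2 or 5 or without ENT+CTLA4 replicate 5. Leaving out ENT+CTLA4 replicate 1 kept Ifit1 alone, and leaving out its replicate 2 kept Usp18 alone. No gene of ENT+PD1+CTLA4 was called against vehicle without vehicle replicate 1, 2 or 5 or ENT+PD1+CTLA4 replicate 2 or 5. Ifit1 alone was called there without ENT+PD1+CTLA4 replicate 6, and 3 genes were called without vehicle replicate 3 (Usp18 added) or ENT+PD1+CTLA4 replicate 1 (Oas2 added). Against ENT+PD1, 0 were called without ENT+PD1 replicate 5 or ENT+PD1+CTLA4 replicate 5, 1 without ENT+PD1 replicate 1, 2 without ENT+PD1+CTLA4 replicate 2 and 6 without ENT+PD1+CTLA4 replicate 1. Subtracting each sample's negative control mean, an alternative chosen after seeing the data, left the 8 changes below 0 (Usp18 against ENT+PD1 at -1.57, adjusted p = 0.113) with 0 called. Quantile normalization, and a fit of the compared groups only, each also left 0 genes of the set called in these 3 comparisons.

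The repeat-titled pair is the 1 treatment name found on both cartridges. Against the ENT+PD1 tumours of the first cartridge, the pair was lower in 10 of 10 genes, against 77.8% of all, with a median of -1.19 against -0.47. The median was -0.78 after median rescaling, -0.45 after quantile normalization and -0.57 with the floor of 20. It was called lower in Bst2 at -0.76 ± 0.13 (adjusted p = 0.00639), Oas2 at -1.84 ± 0.42 (0.0289) and Usp18 at -1.50 ± 0.35 (0.0329), 3 of 10 against 1.45% of all genes. None of the 3 was called after median rescaling or quantile normalization, where Bst2 was at -0.33 (adjusted p = 0.312) and -0.39 (adjusted p = 0.208). Oas2 was above detection in 0 of 2 samples of the pair, so its fold is not measured, and with the floor it was at -0.66 (adjusted p = 0.124). The pair and ENT+PD1 did not overlap in 7 of 10 genes, against 30.8%. The 7 include Ifit3, which passed the filter only with its ENT+PD1 values counted. Ifit1 (-1.06), Oas3 (-1.34) and Cmpk2 (-1.33) had changes near those of ENT+PD1+CTLA4 against ENT+PD1 without being called, and both comparisons share the 4 ENT+PD1 tumours. Bst2 was not called without the pair's replicate 1 (-0.66, adjusted p = 0.0798), nor were the others. Bst2 alone was called without the pair's replicate 2 or without ENT+PD1 replicate 5 or 6, and 6 genes were called without ENT+PD1 replicate 2. Whether the pair holds new tumours or repeat runs is not stated. Each sample's deviations from the mean of its own cartridge were compared over the tested genes. Those of the pair's replicate 1 correlated at 0.397 with those of ENT+PD1 replicate 1 and at 0.465 with those of vehicle replicate 1. Those of its replicate 2 correlated at 0.060 with ENT+PD1 replicate 2 and at 0.289 with ENT replicate 3, so neither was closest to its namesake. The cartridge means come from different arms, so these values cannot tell repeat runs from new tumours.

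ENT+CTLA4 and ENT+PD1+CTLA4 were also set against the pair within the second cartridge. ENT+CTLA4 minus the pair had 0 of 10 genes called (0% of all), 1 at an unadjusted p under 0.05 (7.09%) and a median of -0.09, which was -0.33 after median rescaling. ENT+PD1+CTLA4 minus the pair had 0 called (0%), 1 at an unadjusted p under 0.05 (5.15%) and a median of 0.07, which was -0.15 after median rescaling and -0.10 after quantile normalization. Bst2 alone was higher without overlap in both, at 0.48 ± 0.13 (adjusted p = 0.191) and 0.46 ± 0.13 (adjusted p = 0.357), against 16.7% and 3.7% of genes. With cartridge as a term over 24 samples and the pair counted as ENT+PD1, the median changes of the set became 0.36 for ENT+CTLA4 against vehicle, 0.50 for ENT+PD1+CTLA4 against vehicle and 0.07 for ENT+PD1+CTLA4 against ENT+PD1. The last of these is the same contrast as ENT+PD1+CTLA4 minus the pair, so it is not a separate result. No gene of the set was called in the fit with the cartridge term, and 4 of the 8 changes called without the term were below 0. Its result rests on the pair being ENT+PD1.

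**Figure D4:**
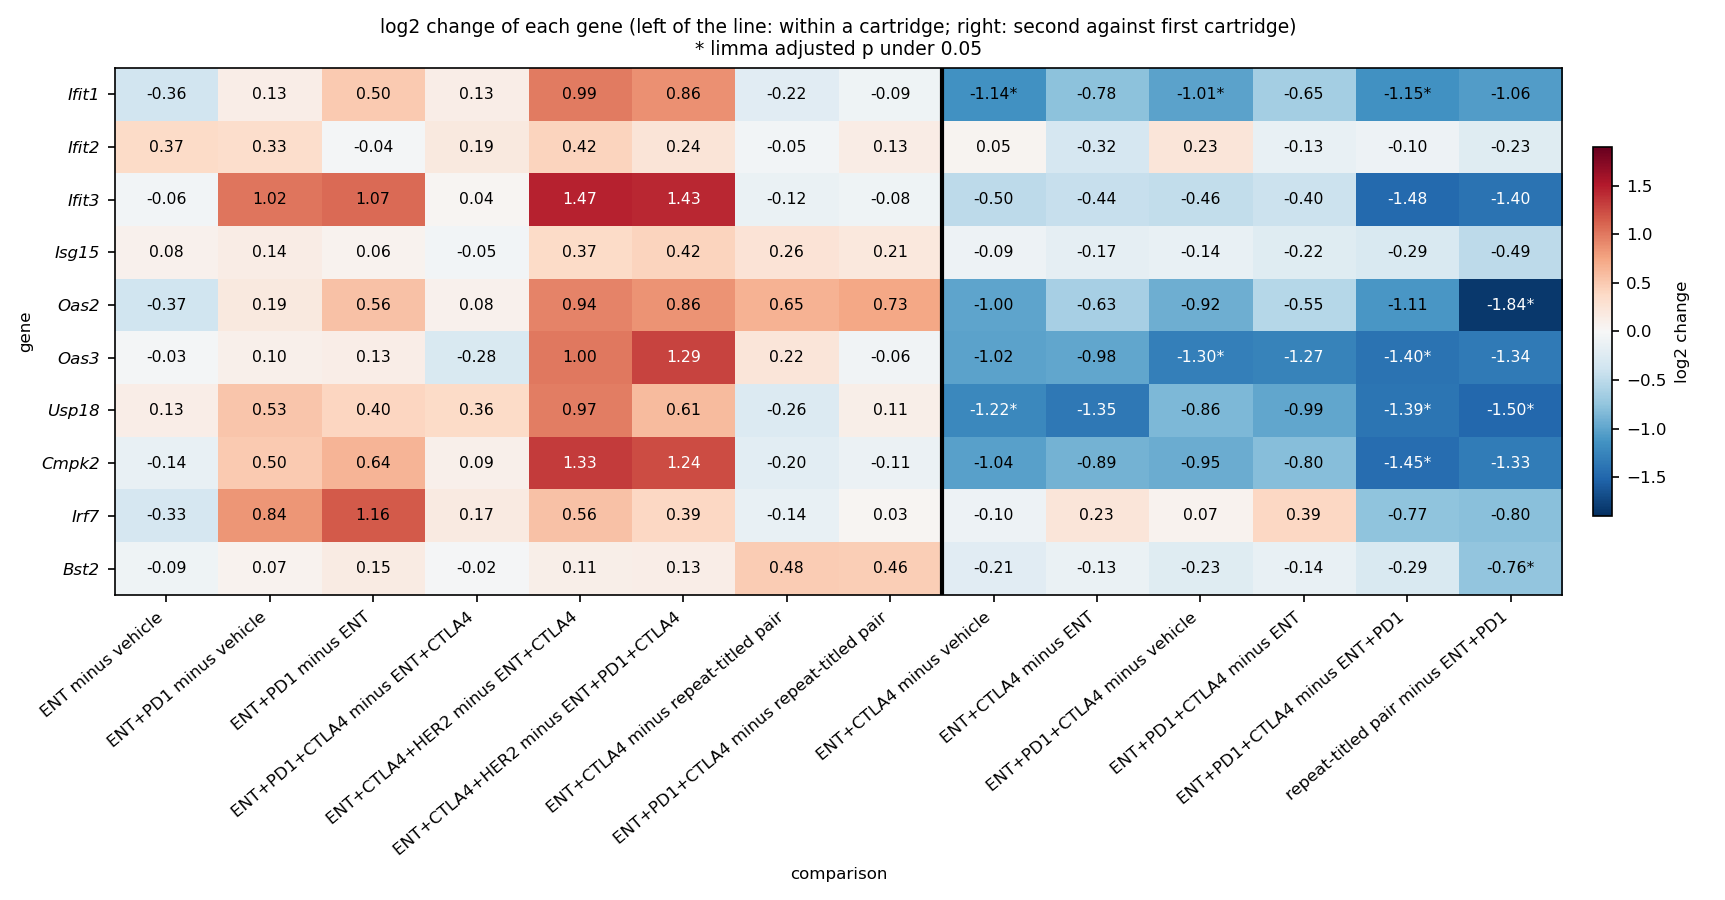
log2 change of each gene (rows) in 14 comparisons (columns), with asterisks for a limma adjusted p under 0.05. Asterisks appear only to the right of the black line, where the second cartridge is set against the first. To its left, the columns of ENT+CTLA4+HER2 are positive in all rows, and their medians of 0.95 and 0.73 were 0.32 and 0.28 after quantile normalization.

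The rest of the pathway was read from lists named by function. Of the interferon genes themselves, Ifnb1 and Ifnl2 exceeded the detection level in 0 of 24 samples and Ifna2 in 2, and none of these 3 was tested. Ifna4 was called higher in ENT+CTLA4+HER2 than in ENT+CTLA4 at 2.10 ± 0.55 (limma adjusted p = 0.0495). Its means were 26.5 and 5.91, the second of these under the detection level. Thus 1 of 2 tested ligands was called, against 2.25% of all genes, and so small a list gives no share to compare. Ifnar1 and Ifnar2 exceeded detection in all samples, and 0 of 6 genes of the receptor and signalling list were called in any comparison.

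Among 28 further interferon-stimulated genes, 19 were on the table and 15 were tested, and 0 were called in any of the 16 tests. In ENT+PD1+CTLA4 against ENT+PD1, where 4 of the 10 genes were called, 10 of these 15 were below 0. Their median of -0.10 was nearer 0 than the median of -0.25 over all genes. Rsad2 (viperin, an antiviral enzyme), named here after its values were seen, averaged 41.4 in ENT+CTLA4+HER2, 22.9 in ENT+PD1+CTLA4, 20.9 in ENT+CTLA4, 21.5 in the repeat-titled pair, 38.0 in ENT+PD1, 25.6 in ENT and 25.0 in vehicle. Mx1, a classical interferon target, was at 1.00 to 8.74 and above detection in 0 of 24 samples. Of 16 tested sensors and inducers, Mavs, the adaptor of the RNA sensors, was called lower in ENT+CTLA4+HER2 than in ENT+CTLA4 at -0.76 ± 0.15 (adjusted p = 0.0249). Of 16 tested interferon gamma targets and genes, Psmb9, an immunoproteasome subunit, was called higher there at 1.32 ± 0.31 (limma adjusted p = 0.0344). In that comparison 15 of the 16 were above 0, against 67.6% of all genes, and 2.25% of all genes were called. No other gene of these lists was called in any comparison.

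Across the 24 samples the levels of the 10 genes were positively correlated in most pairs. The 45 pairs had a median Pearson r of 0.50, with 44 above 0, against 0.18 for all pairs of tested genes. Ifit1 with Cmpk2 reached 0.85, Ifit1 with Usp18 0.84 and Oas3 with Usp18 0.82. After centring on the means of the 7 groups, which removes differences between their means, the median was 0.26 with 37 above 0, against 0.17 for all pairs. The highest pair was then Ifit1 with Bst2 (0.64), and Oas3 with Irf7 went to -0.42. All pairs share samples, scaling and low counts, so these values are descriptions.

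**Figure D5:**
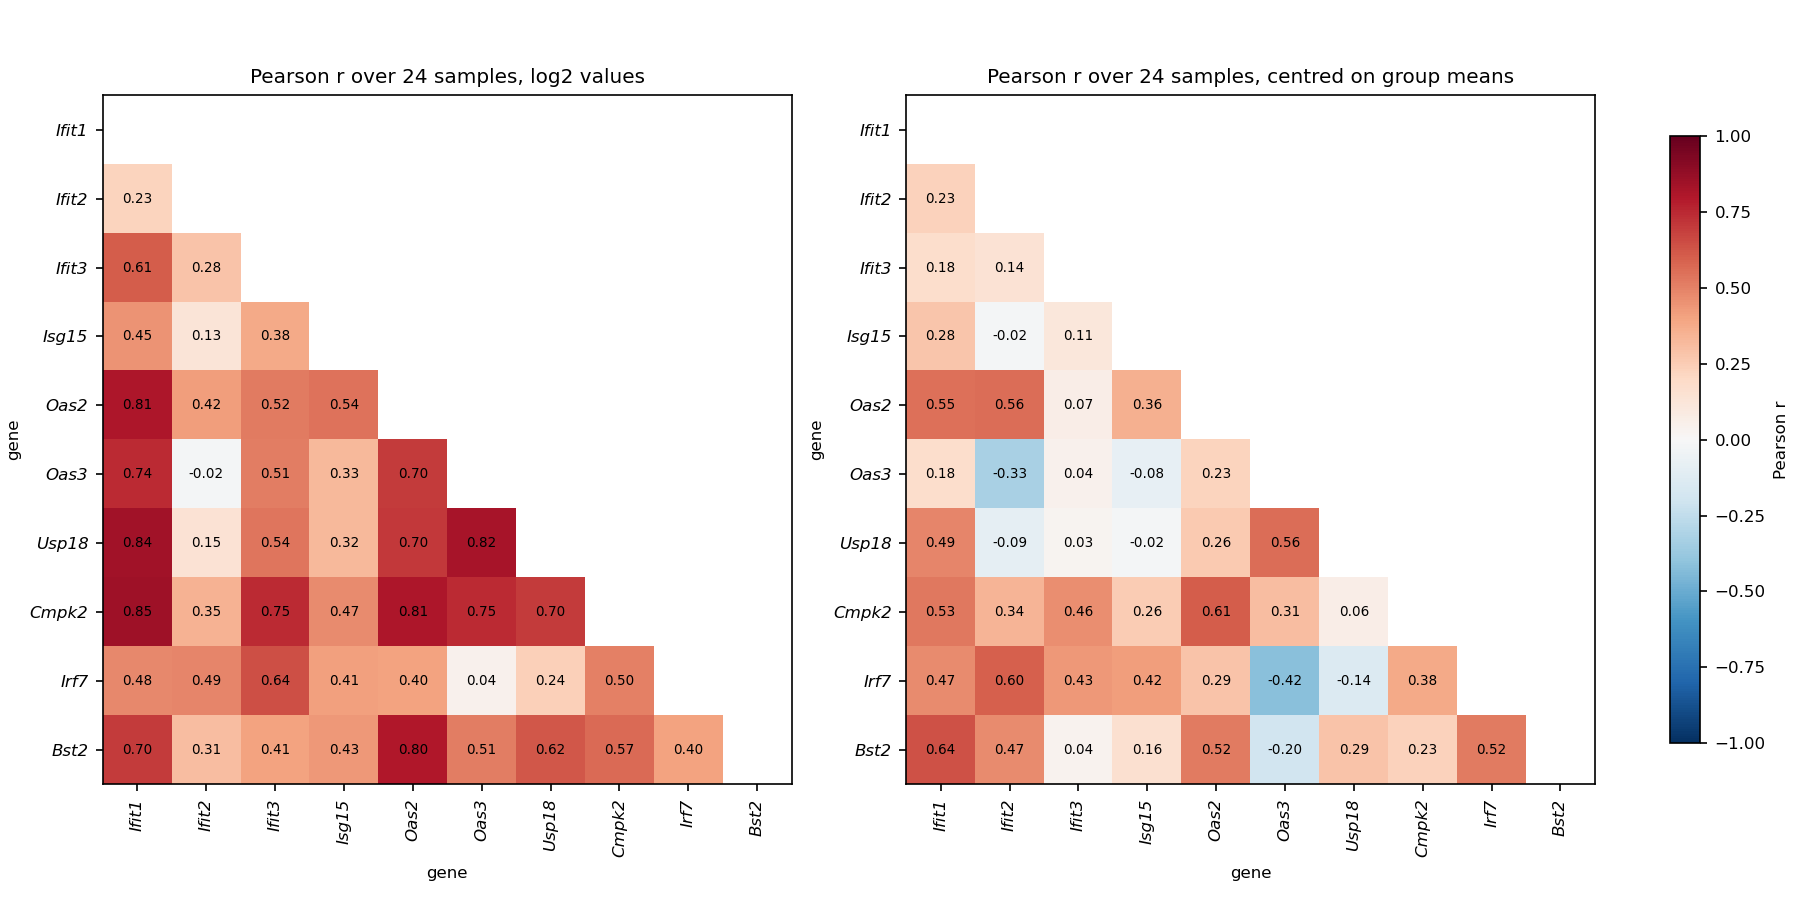
Pearson r between the genes over 24 samples, on log2 values (left) and after centring on the 7 group means (right). Values on the left are mostly above 0.2, and values on the right run from -0.42 (Oas3 with Irf7) to 0.64 (Ifit1 with Bst2).

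The 5 other genes most like the mean of the set after that centring, over 24 samples, were Cd55 (r = 0.771), a brake on complement, Cd247 (0.769), the zeta chain of the T cell receptor, Il16 (0.766), a lymphocyte attractant, Spn (0.728), the leukocyte sialoglycoprotein CD43, and Cfi (0.728), a complement protease. Over whole lists the median r was 0.65 for 4 tested T cell markers, 0.62 for 2 NK markers, 0.31 for 15 further interferon-stimulated genes and -0.35 for 5 epithelial markers, against 0.29 over all tested genes. It was 0.70 for 1 B cell marker, 0.51 for 2 endothelial markers and 0.49 for 16 interferon gamma targets and genes. The remaining lists had medians of 0.16 to 0.39. T cell markers summed to 53.8 to 862 within ENT+PD1+CTLA4, and how far these r values rest on single tumours was not tested.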

How the data were processed

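Counts of 24 samples came from an nCounter instrument on 2 cartridges. The authors deposited normalized values (signal on a linear scale, 1 factor per sample, per the file headers and the values), with unscaled control probes. Only limma is named, per the submitters' processing notes, and no source used here gives the normalization steps. Dividing a sample by its factor gave whole numbers for at least 99.7% of its values above 1 (tolerance 0.05), with 82 values at 1, and such counts serve only as description. The label protocol names a myeloid panel and the table a PanCancer panel.

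Log2(value + 1) was tested with limma 3.58.1 (R 4.3.3, lmFit, eBayes with trend) on 621 genes, over 22 samples in 6 groups, or 24 in 7 for the repeat-titled pair, with Benjamini-Hochberg adjustment at 0.05. This scale understates changes of weak genes. Replicate numbers were not treated as pairs. All 10 genes were named in every comparison, up to 4 called genes per list, and the 5 genes most like their mean. Members and lists were chosen with earlier results of these data known. The script was tested on simulated data. RefSeq supplied promoters.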

Additional observations from a re-analysis of the deposited data

Results flagged for a closer look

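Of 50 sets of 4 tumours (each gene in each arm of 4), 1 held a tumour far from the others, and chance alone gives about 1 in 20. Irf7 read 22.1 in vehicle replicate 1 against 14.3 to 14.8 in the other vehicle tumours, a gap of 0.928 of the group's range.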

How the results depend on the processing

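Genes called are given first and members of the set after them. The main counts were 2 and 0 for ENT+PD1 against ENT, 9 and 2 for ENT+CTLA4 against vehicle, 13 and 2 for ENT+PD1+CTLA4 against vehicle, 20 and 4 for ENT+PD1+CTLA4 against ENT+PD1, 14 and 0 for ENT+CTLA4+HER2 against ENT+CTLA4, 19 and 0 for it against ENT+PD1+CTLA4, 20 and 4 for the F test and 9 and 3 for the repeat-titled pair against ENT+PD1. All others were 0 and 0. ENT+PD1 against ENT fell to 0 genes with a pseudocount of 10, median rescaling, quantile normalization, a floor of 20, the compared groups only, the replicate block and negative controls subtracted. With a pseudocount of 10, ENT+PD1+CTLA4 against vehicle kept 1 member, and ENT+CTLA4 and ENT+PD1+CTLA4 against the pair gained 2 genes and 1 gene. Median rescaling gave 0 and 0 for ENT+PD1+CTLA4 against vehicle and against ENT+PD1 and for the pair, 0 genes and 1 gene for ENT+CTLA4+HER2 against ENT+CTLA4 and ENT+PD1+CTLA4, and 1 gene for ENT+PD1+CTLA4 against the pair. Quantile normalization gave 0 members in every comparison, with 0 genes for both arms against vehicle and for the pair against ENT+PD1, 1 for ENT+PD1+CTLA4 against ENT+PD1, 0 and 3 for ENT+CTLA4+HER2, 1 for the F test and 1 for ENT+PD1+CTLA4 against the pair. A floor of 20 gave 1 and 1 for ENT+CTLA4 against vehicle, 2 and 0 for ENT+PD1+CTLA4 against vehicle, 7 genes against ENT+PD1, 22 and 1 for ENT+CTLA4+HER2 against ENT+CTLA4, 1 member against ENT+PD1+CTLA4, 5 genes in the F test and 2 genes for each arm against the pair. With the compared groups only, ENT+CTLA4 against ENT had 46 and 2, ENT+CTLA4 against the pair had 4 genes, the F test stayed within 1.5 times, and the other comparisons with calls above had 0 and 0. The replicate block gave 0 and 0 against vehicle and for the pair against ENT+PD1, 2 members for ENT+PD1+CTLA4 against ENT+PD1, 0 genes for ENT+CTLA4+HER2, and 6 and 2 in the F test; over 52 same-number pairs the median correlation was -0.021, so the numbers are not taken as pairs. Negative controls subtracted, chosen after seeing the data, gave 1 and 0 for ENT+CTLA4 against vehicle, 0 and 0 for ENT+PD1+CTLA4 against vehicle, 2 and 0 against ENT+PD1, 6 and 12 genes for ENT+CTLA4+HER2, 3 and 0 in the F test and 2 and 1 for the pair. The cartridge term gave 0 and 0 for ENT+CTLA4 against vehicle, ENT+PD1+CTLA4 against vehicle and against ENT+PD1, and the F test, with 0 members in its other comparisons. The cause of these shifts was not tested.

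Leaving out a sample gave, in genes and members, 0 to 26 and 0 to 1 for ENT+PD1 against ENT, 0 to 22 and 0 to 2 for ENT+CTLA4 against vehicle, 0 to 1 and 0 to 1 against ENT, 0 to 18 and 0 to 3 for ENT+PD1+CTLA4 against vehicle, 0 to 1 and 0 to 0 against ENT, 2 to 69 and 0 to 6 against ENT+PD1, 0 to 23 and 0 to 0 for ENT+CTLA4+HER2 against ENT+CTLA4, 0 to 35 and 0 to 2 against ENT+PD1+CTLA4, 0 to 1 and 0 to 0 for the interaction, 6 to 57 and 2 to 5 in the F test, 1 to 78 and 0 to 6 for the pair, and 0 to 7 and 0 to 1 for ENT+PD1+CTLA4 against the pair. Where 1 sample remained in ENT+CTLA4+HER2 or the pair, it is assumed to vary like the other groups. Reversed under the cartridge term were Usp18 in ENT+CTLA4 against vehicle (0.28), Ifit1 (0.045) and Oas3 (0.037) in ENT+PD1+CTLA4 against vehicle and Usp18 against ENT+PD1 (0.11). The last value is the same as that of ENT+PD1+CTLA4 minus the pair. The 2 planned count models were not run. Depth limits Ifit3, Oas3, Irf7 and Oas2 most, which lay under the detection level in 17, 9, 7 and 6 of 24 samples.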
